A study of Mus musculus with 7 samples.

Results

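Proteases stored in the granules of mast cells and basophils were examined on 7 single-colour Agilent arrays of mouse dendritic cell cultures. The 9 genes listed for this family were Cpa3, Prss34, Mcpt8, Mcpt4, Mcpt1, Mcpt2, Cma1, Tpsb2 and Tpsab1. Their probes were found by matching each probe's RefSeq accession to a gene table, which gave 9 probes of 8 genes, among 55681 probes of which the named ones cover 20018 genes. Tpsb2 had 2 probes, and no probe was matched to Tpsab1. Of the 9 probes, 6 from 5 genes were well above background on at least 3 of the 7 arrays and were tested. Fluorescence is given as scanner intensity or as log2 signal relative to the array's 75th percentile.

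The 3 arrays labelled knockout came from C57BL/6 mice with the genotype Gata2(f/f)/ER-Cre, a floxed Gata2 gene with a tamoxifen-inducible Cre recombinase, and the 4 control arrays from Gata2(f/f) mice without the Cre. Both groups received tamoxifen between day 1 and day 10. Common myeloid progenitors (CMPs), which give rise to granulocytes, monocytes, red cells and platelets, were sorted on days 20 to 22. They were cultured with FLT3 ligand at 200 ng/ml on bone marrow feeder cells of SJL mice, which carry another CD45 allele. The labels read here name neither the promoter of the Cre, nor a step that parts the cells from their feeders, nor how many animals went into an array. The p-values therefore measure only the spread between these arrays, which may be technical. Each group lay in a row of its own on 1 slide, so slide row, presence of the Cre and group cannot be told apart.

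Mast cells and basophils store neutral proteases in their granules, bound to the proteoglycan serglycin, and release them when IgE receptors are cross-linked. The enzymes fall into chymases, tryptases and a carboxypeptidase. In the mouse, Mcpt8 and Prss34 (mMCP-11) are known as basophil proteases, Mcpt1 and Mcpt2 as chymases of mucosal mast cells, and Mcpt4 and Cma1 (mMCP-5) as chymases of connective tissue mast cells. Tpsb2 (mMCP-6) and Tpsab1 (mMCP-7) are mast cell tryptases, and Tpsab1 is known to be defective in C57BL/6 mice. Cpa3 encodes a carboxypeptidase found in mast cells, basophils and their progenitors. GATA2 is a zinc finger transcription factor that basophil and mast cell development is known to require.

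The bases upstream of the transcription start are shown for the 3 protease genes that fell, and for Mcpt4, the chromosomal neighbour of Mcpt8. Capitals mark a match, on either strand, to letters that GATA factors are known to favour. These were the motif AGATAA, the motif TGATAA, the motif AGATAG and the motif TGATAG. Each sequence is the 250 bases before the start, 5′ to 3′ on the gene's strand, from RefSeq for GRCm38.p6.
Cpa3: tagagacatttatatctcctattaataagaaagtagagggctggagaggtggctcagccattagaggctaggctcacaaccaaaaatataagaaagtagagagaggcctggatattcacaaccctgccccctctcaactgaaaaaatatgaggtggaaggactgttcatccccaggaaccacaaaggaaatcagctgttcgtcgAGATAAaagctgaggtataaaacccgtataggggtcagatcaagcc
Prss34: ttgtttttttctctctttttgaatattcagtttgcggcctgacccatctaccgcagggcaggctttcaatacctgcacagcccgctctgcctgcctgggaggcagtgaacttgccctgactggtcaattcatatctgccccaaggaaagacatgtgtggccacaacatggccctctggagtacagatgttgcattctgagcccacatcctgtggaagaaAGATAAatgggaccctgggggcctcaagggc
Mcpt8: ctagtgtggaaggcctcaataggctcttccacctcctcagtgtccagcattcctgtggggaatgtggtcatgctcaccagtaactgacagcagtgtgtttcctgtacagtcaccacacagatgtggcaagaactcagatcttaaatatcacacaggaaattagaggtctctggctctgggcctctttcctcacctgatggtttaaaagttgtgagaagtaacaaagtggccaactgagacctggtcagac
Mcpt4: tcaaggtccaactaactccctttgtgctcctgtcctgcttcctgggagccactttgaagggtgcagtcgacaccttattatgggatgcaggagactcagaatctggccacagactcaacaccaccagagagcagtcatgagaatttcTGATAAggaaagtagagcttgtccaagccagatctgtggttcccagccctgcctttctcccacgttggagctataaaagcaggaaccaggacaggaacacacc
The windows are chr3:20242182-20242431 on the minus strand for Cpa3, chr17:25298144-25298393 on the plus strand for Prss34, chr14:56085198-56085447 on the minus strand for Mcpt8 and chr14:56062311-56062560 on the minus strand for Mcpt4. Cpa3 held AGATAA from 46 to 41 bases before the start and Prss34 held AGATAA from 31 to 26 bases before it. The window of Mcpt4 held TGATAA from 103 to 98 bases before the start, while that of Mcpt8 held none of these letters. Windows of 6 of the 9 genes were in the table, and 5 of the 6 had a match. Those were Cpa3 and Prss34, which fell, and Mcpt4, Mcpt1 and Cma1, which did not pass or were not tested. The windows of Mcpt1 and Mcpt4 share the letters around TGATAA, so their matches are not independent. Whether these genes hold more matches than others was not tested. At least 1 match stood in 26.5% of all 32851 windows of this length. A match is a string of letters and was not examined for binding here.

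Before the proteases, the targeted gene was checked. Gata2 read 2.93, 3.00 and 3.06 on the arrays labelled knockout, against -0.25, 0.24, 0.36 and 0.34 on the control arrays (log2 signal relative to the 75th percentile). It was 7.08-fold higher in the arrays labelled knockout (log2 fold change 2.82, SE 0.18, limma adjusted p = 0.000415), opposite to a loss of the transcript. Whether its single probe lies within the floxed stretch could not be read from the files, so every direction is that of the arrays as labelled. Dendritic cell markers were present in both groups: 14 of 15 were tested and none rose or fell at an adjusted p of 0.05 in limma. Their mean log2 signal ran from 3.11 to 3.33 in knockout-labelled arrays and from 3.21 to 3.34 in controls.

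The comparison of the groups asks which of these proteases differ in cultures of progenitors in which Gata2 was targeted. Cpa3, Prss34 and Mcpt8 fell in the arrays labelled knockout, 32.5-fold, 123-fold and 6.16-fold. The probes of Tpsb2 and Mcpt4 did not pass the test, and those of Mcpt1, Mcpt2 and Cma1 were too dim to be tested. So 3 of 6 tested probes fell and none rose, against 0.522% of all 34099 tested probes that fell and 0.842% that rose. In RNA pooled from many cells, fewer cells of a type and less RNA per cell cannot be told apart.

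Cpa3 had an intensity of 786, 561 and 593 on the arrays labelled knockout, against 16327, 13437, 14956 and 28302 on the control arrays. Every array labelled knockout lay below every control array, as for 5.98% of all tested probes, and the gap between the nearest pair was 18.3-fold after scaling. On the log2 scale its signal averaged -2.50 ± 0.37 (SD, n = 3) across arrays labelled knockout, against 2.53 ± 0.47 (SD, n = 4) across control arrays. The log2 fold change was -5.02 (SE 0.29, limma adjusted p = 0.000272), with a 95% interval from 20.4-fold to 51.8-fold lower. The probe stayed well above background on all 3 arrays labelled knockout, so the carboxypeptidase transcript was dimmer but still measured. Its change was the 16th lowest of the 34099 tested probes.

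Prss34, the basophil tryptase mMCP-11, had an intensity of 108, 123 and 123 on the arrays labelled knockout, against 5962, 19385, 8170 and 23179 on the control arrays. The nearest pair of arrays from the 2 groups stood 54.2-fold apart after scaling. The log2 signal averaged -4.94 ± 0.03 (SD, n = 3) across arrays labelled knockout, against 2.00 ± 0.95 (SD, n = 4) across control arrays, a log2 fold change of -6.94 (SE 0.47, limma adjusted p = 0.000513). The 95% interval was 58.1-fold to 260.2-fold lower. This was the second lowest log2 fold change of the 34099 tested probes. The control arrays spanned 4.16-fold, with replicates 2 and 4 high and replicates 1 and 3 low, while the arrays labelled knockout spanned 1.04-fold. With normexp background correction the log2 fold change was -6.06.

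Mcpt8, the classical basophil marker in the mouse, had an intensity of 1430, 1433 and 1584 on the arrays labelled knockout, against 6399, 7871, 6410 and 10705 on the control arrays. The groups did not overlap, and the nearest pair stood 4.51-fold apart after scaling. Its log2 signal averaged -1.29 ± 0.11 (SD, n = 3) across arrays labelled knockout, against 1.34 ± 0.35 (SD, n = 4) across control arrays. The log2 fold change was -2.62 (SE 0.21, limma adjusted p = 0.000833), with a 95% interval from 4.43-fold to 8.58-fold lower. Mcpt8, Prss34 and Cpa3 were each brightest on control replicate 4. No spot of the 9 probes was saturated.

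**Figure D1:**
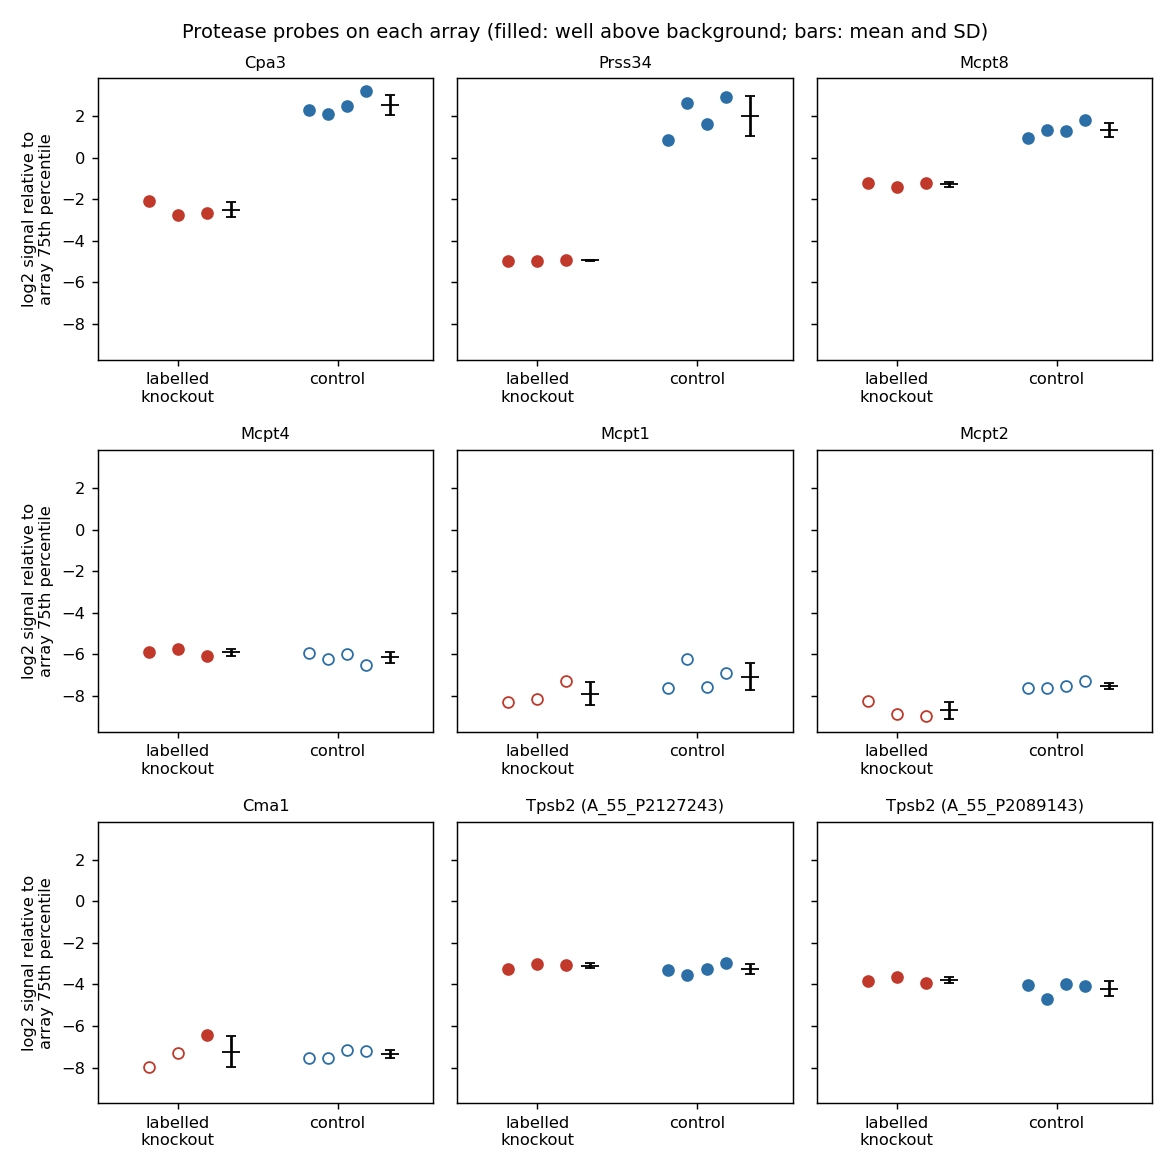
Each panel shows 1 protease probe, with log2 signal relative to the array's 75th percentile on the y axis and the arrays labelled knockout left of the control arrays. Points are arrays, filled where the spot was well above background, and bars give the mean and SD. Cpa3, Prss34 and Mcpt8 lie lower on all 3 arrays labelled knockout than on all 4 controls, while the panels of the other genes stay within a narrow range or below background.

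Tpsb2, the mast cell tryptase mMCP-6, was well above background on all 7 arrays at both probes. Probe A_55_P2127243 had an intensity of 352, 471 and 448 on the arrays labelled knockout, against 338, 270, 280 and 396 on the control arrays, and the scaled values of the groups overlapped. Its log2 fold change was 0.15 (SE 0.17, limma adjusted p = 0.781). The 95% interval ran from -0.23 to 0.54 on the log2 scale, which leaves out a fall of the size of Cpa3, Prss34 or Mcpt8. Probe A_55_P2089143 had an intensity of 232, 308 and 244 on the arrays labelled knockout, against 204, 118, 171 and 181 on the control arrays. The groups did not overlap after scaling, with the knockout label on the brighter side, as for 5.28% of tested probes, and the log2 fold change of 0.40 did not pass (SE 0.21, limma adjusted p = 0.568, 95% interval -0.09 to 0.88). The tryptase genes share much of their sequence, and whether a Tpsb2 probe also reads Tpsab1 RNA was not tested.

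The chymases of mast cells were near background. Mcpt4 had an intensity of 56.9, 70.4 and 53.7 on the arrays labelled knockout, against 54.3, 42.0, 42.6 and 34.2 on the control arrays. It cleared background on all 3 knockout-labelled arrays and on none of the 4 controls, and entered the test through the arrays labelled knockout alone. The scaled values overlapped, and the log2 fold change of 0.24 did not pass (SE 0.18, limma adjusted p = 0.692, 95% interval -0.19 to 0.66). No fold is given, because the mean of the arrays labelled knockout lay below the dimmest control signal counted as well above background. With normexp background correction or with values raised to each array's own dimmest such signal, the sign of the Mcpt4 difference turned (log2 fold change -0.10 and -0.40).

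Mcpt1 averaged -7.90 ± 0.55 (SD, n = 3) on the log2 scale in knockout-labelled arrays, against -7.07 ± 0.67 (SD, n = 4) in controls, and was well above background on no array. Mcpt2, the other mucosal chymase, averaged -8.70 ± 0.40 (SD, n = 3) in knockout-labelled arrays, against -7.52 ± 0.16 (SD, n = 4) in controls, and was also well above background on none. Without a filter on background it was the only further protease to pass (log2 fold change -1.18, limma adjusted p = 0.00793), in a fit where 9270 of 55658 probes fell. Negative control spots were dimmer in the arrays labelled knockout too (-8.78 ± 0.41, SD, n = 3, against -7.59 ± 0.14, SD, n = 4, on the log2 scale). Cma1 read 13.4, 24.7 and 42.4 on the arrays labelled knockout, against 17.9, 16.9, 18.9 and 21.2 on the controls. It was well above background on replicate 3 labelled knockout alone.

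Mcpt8 fell less than Cpa3 and less than Prss34, while the falls of Prss34 and Cpa3 did not differ past the threshold. Each of these genes was read by a single probe, and whether their probes respond alike to RNA was not tested. The difference between Mcpt8 and Cpa3 within an array was 0.86, 1.35 and 1.42 log2 units on the arrays labelled knockout, against -1.35, -0.77, -1.22 and -1.40 on the control arrays. Mcpt8 thus fell 5.27-fold less than Cpa3 (difference of 2.40 log2 units, two-sided exact permutation p = 0.0286, adjusted p = 0.0429 over 3 pairs). Prss34 minus Mcpt8 was -3.73, -3.54 and -3.68 on the arrays labelled knockout, against -0.10, 1.30, 0.35 and 1.11 on the controls, so Prss34 fell 19.9-fold more than Mcpt8 (difference of -4.32 log2 units, two-sided exact permutation p = 0.0286, adjusted p = 0.0429). With normexp that difference was -3.51. An unadjusted p of 0.0286 is the smallest that the 35 splits of the arrays allow. Prss34 minus Cpa3 was -2.86, -2.19 and -2.27 on the arrays labelled knockout, against -1.45, 0.53, -0.87 and -0.29 on the controls. That difference of -1.92 did not pass (two-sided exact permutation p = 0.0571, adjusted p = 0.0571), and was -1.32 with normexp.

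**Figure D2:**
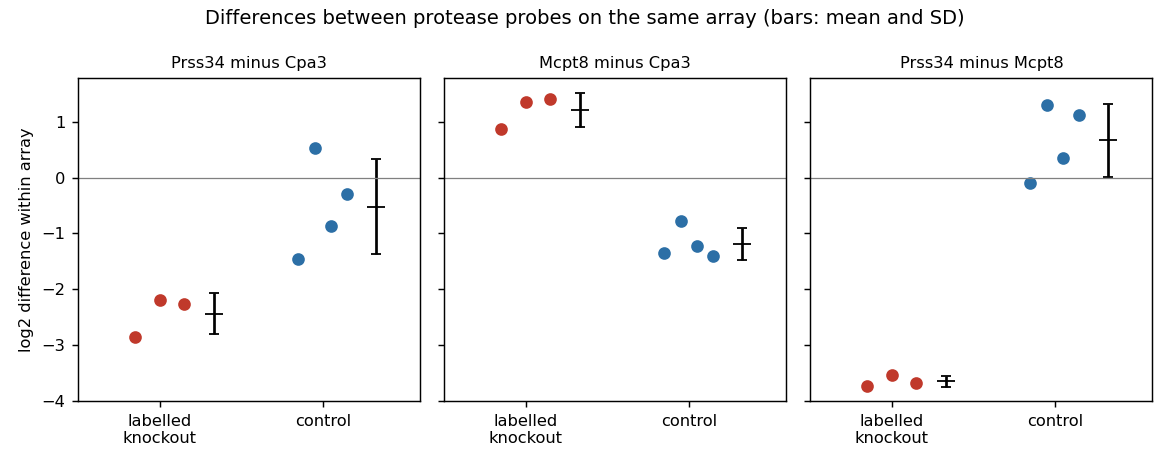
Each panel shows the log2 difference between 2 protease probes on the same array, with the arrays labelled knockout left of the controls. Points are arrays and bars give the mean and SD. Mcpt8 minus Cpa3 lies above 0 on the arrays labelled knockout and below 0 on the controls, and Prss34 minus Mcpt8 lies lowest on the arrays labelled knockout.

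Of the nearest genes, those tested did not pass. Mcpt8 and Mcpt4 are adjacent in the chymase cluster of chromosome 14 in RefSeq order, which was read from GRCm38.p6 while the arrays were annotated on mm9. The next protease gene on the other side of Mcpt8 is Ctsg, the neutrophil protease cathepsin G, whose log2 fold change was -0.32 (limma adjusted p = 0.576). In the tryptase cluster of chromosome 17, the next protease gene after Prss34 is Prss28, which had a log2 fold change of 0.14 (limma adjusted p = 0.881), and Tpsb2 lies further along. On chromosome 3, the nearest protein-coding genes to Cpa3 are Gyg, the glycogenin gene, with a log2 fold change of -0.25 (limma adjusted p = 0.537), and Cpb1, a pancreatic carboxypeptidase gene that was not tested. The non-coding genes and pseudogenes that lie between some of these are not on the array under a matched name. Whether neighbours differ from the genes that fell was not tested as such.

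**Figure D3:**
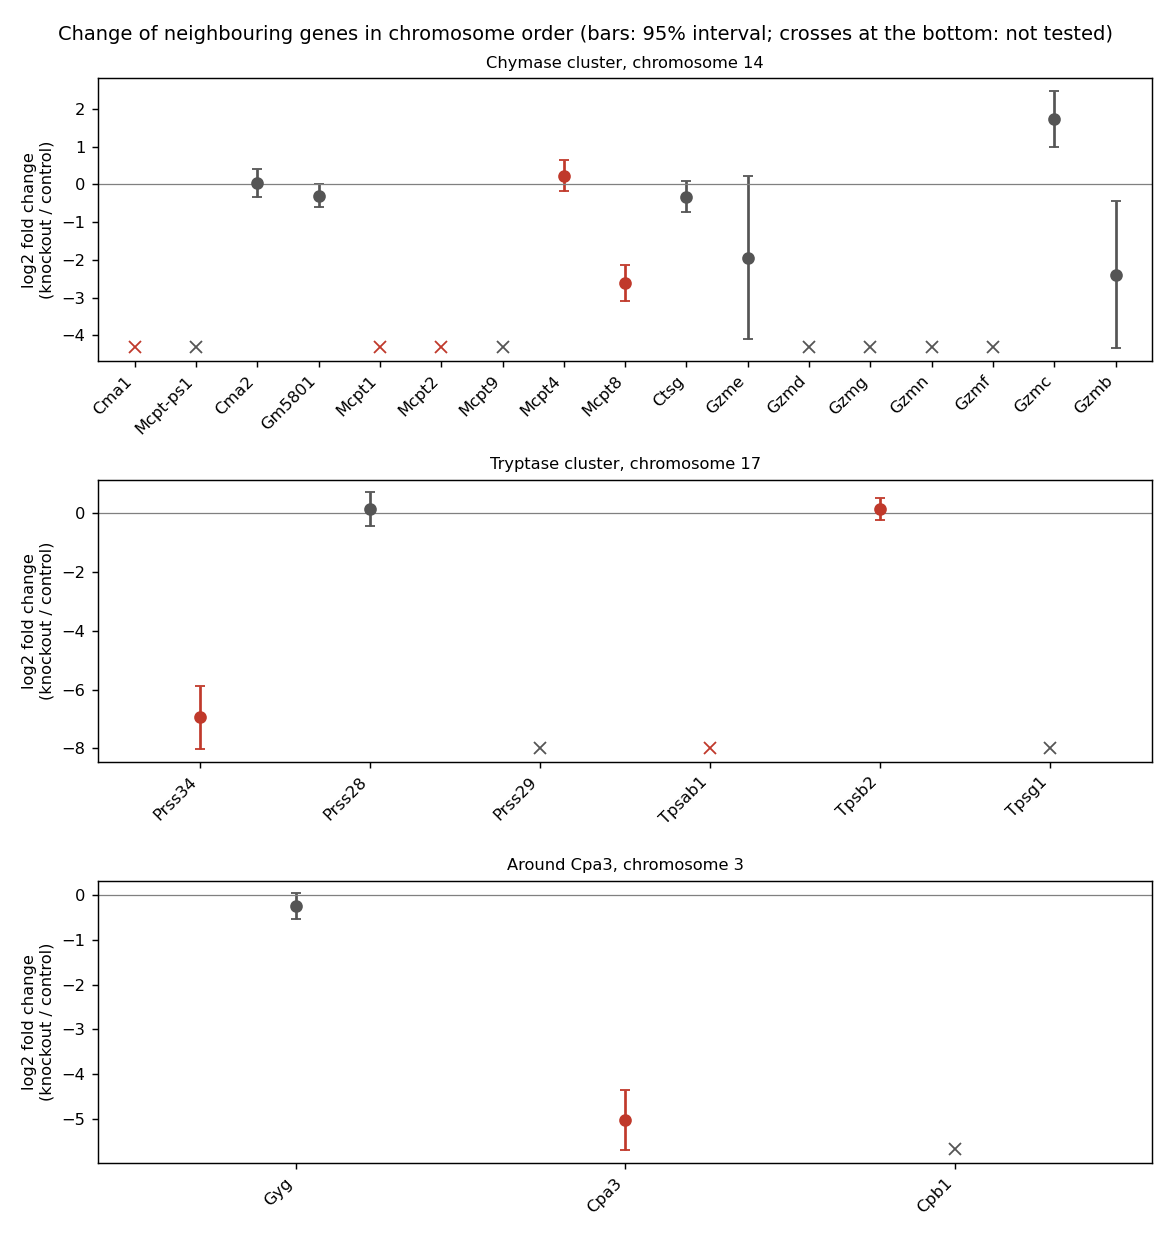
Panels give the log2 fold change of the arrays labelled knockout over the controls for genes in chromosome order around the protease clusters, with the order and not the distance on the x axis. Red marks the listed proteases, bars are 95% intervals, and crosses at the bottom mark genes that were not tested; Tpsb2 is shown by its brighter probe. Mcpt8, Prss34 and Cpa3 lie below 0 with their whole intervals, while those of Mcpt4, Ctsg, Prss28 and Gyg reach 0. In the chymase cluster Gzmb also lies wholly below 0 (-4.34 to -0.45) and Gzmc wholly above 0 (0.99 to 2.47), though neither passed the adjusted threshold.

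Relatives of the proteases gave no calls. Of 10 other serine protease genes of the chymase locus 5 were tested, and none rose or fell (median log2 fold change -0.32, against -0.05 over 14539 named genes). Gzmb, the cytotoxic granule protease granzyme B, had log2 signals from -6.41 to -4.64 in knockout-labelled arrays and from -4.45 to -0.92 in controls, with a log2 fold change of -2.39 (limma adjusted p = 0.341). Gzme, another granzyme, had a log2 fold change of -1.94 (limma adjusted p = 0.528). It was well above background on only 1 array labelled knockout and 2 controls, and its value ranged from -2.53 to -0.42 over the alternatives. Gzmc, named after its values were seen, had a log2 fold change of 1.73 and lay at the edge of the threshold (limma adjusted p = 0.0511, and from 0.00809 to 0.326 over the alternatives).

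Of 9 tryptase locus relatives 6 were tested and none passed (median log2 fold change -0.03), among them Prss32 at 0.57 and Prss27 at -0.23 (limma adjusted p = 0.511 and 0.754). Prss32 cleared background on all 3 arrays labelled knockout and on 0 controls, and so entered the test through the knockout-labelled arrays alone. Its log2 fold change ranged from 0.16 to 0.67 over the alternatives. Of 7 carboxypeptidase A and B relatives 4 were tested and none passed (median 0.12), among them Cpb2 at -0.42 (limma adjusted p = 0.675). Among named genes 0.894% fell and 1.09% rose.

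Of 11 genes of granule storage and processing, all tested, 2 fell and none rose (median log2 fold change -0.23). Slc18a2, the vesicular transporter that loads histamine and serotonin, read -2.96, -3.58 and -3.37 on the arrays labelled knockout, against -0.66, -0.22, -0.53 and -0.70 on the controls. It fell 6.86-fold (limma adjusted p = 0.000579). Hdc, which makes histamine, fell 6.71-fold (limma adjusted p = 0.0123), a call lost without replicate 3 labelled knockout (adjusted p = 0.0578). Srgn, the serglycin core protein that binds these proteases, had a log2 fold change of -0.23 (95% interval -0.53 to 0.06, limma adjusted p = 0.575). Ctsc, the dipeptidyl peptidase that activates chymases and granzymes, had a log2 fold change of -0.18 (95% interval -0.52 to 0.15, limma adjusted p = 0.699).

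Transcription factors known from mast cells and basophils were read next. Of 14 tested, Gata2 rose and none fell (median log2 fold change -0.05). Gata1 read -1.07, -1.75 and -1.46 on the arrays labelled knockout, against -0.60, -0.26, -0.58 and -0.81 on the controls. Its log2 fold change of -0.86 did not pass (limma adjusted p = 0.128). Mitf, the master factor of mast cells, had a log2 fold change of -0.20 at its brightest probe and -0.84 at another, and neither passed (limma adjusted p = 0.785 and 0.352).

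Markers of mast cells and basophils other than the proteases were counted too. Of 19 listed without the proteases, 18 were tested, 7 fell and 1 rose, Gata2 itself (median log2 fold change -1.19). Among all 14539 named genes tested 0.894% fell and 1.09% rose. Their mean log2 signal ran from -2.22 to -2.03 in knockout-labelled arrays and from -0.91 to -0.56 in controls. The defining markers Ms4a2, which encodes the signal-amplifying IgE receptor subunit, and Cd200r3, a basophil and mast cell surface receptor, were well above background on all 4 controls and on no array labelled knockout. Both genes entered the test through the control arrays alone. Over probes well above background on all 7 arrays, 15 genes of the list were tested, 4 fell and 1 rose (median log2 fold change -0.29). In that fit 194 of all 27704 probes fell and 203 rose. Ms4a2 was at least 4.69-fold lower and Cd200r3 at least 5.21-fold lower, against the dimmest signal counted as well above background (limma adjusted p = 0.000513 and 0.00447 in the fit without a floor). With a common floor at the highest such signal, both calls were lost (adjusted p = 0.158 and 0.309).

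Fcer1a, whose product binds IgE itself, read -5.35, -8.99 and -6.34 in knockout-labelled arrays, against -2.19, -1.75, -2.21 and -1.23 in controls (log2 signal). Replicate 2 labelled knockout was not well above background, so the size of the change is not exact. The fitted log2 fold change was -5.05 (limma adjusted p = 0.0223), against -4.43 with each array raised to its own floor, -3.05 with normexp and -4.00 without that array. Without replicate 1 labelled knockout it was -5.82. Its call was lost without replicate 3 labelled knockout (adjusted p = 0.0852) or without control replicate 2, 3 or 4 (adjusted p from 0.0560 to 0.0675). Cd63, a granule membrane tetraspanin, fell 3.82-fold (limma adjusted p = 0.00128) and the cytokine gene Il4 2.40-fold (limma adjusted p = 0.0396). The call of Il4 was lost without any 1 of 6 of the arrays (adjusted p from 0.0511 to 0.204), all but control replicate 3. Kit, the stem cell factor receptor that mast cells keep, read 2.70, 3.29 and 2.76 on the arrays labelled knockout, against 3.08, 3.05, 3.29 and 3.03 on the controls. Its log2 fold change was -0.20 (95% interval -0.61 to 0.22, limma adjusted p = 0.739). The count of 7 was 4 without replicate 3 labelled knockout, 4 with the common floor and 4 with a replicate block.

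**Figure D4:**
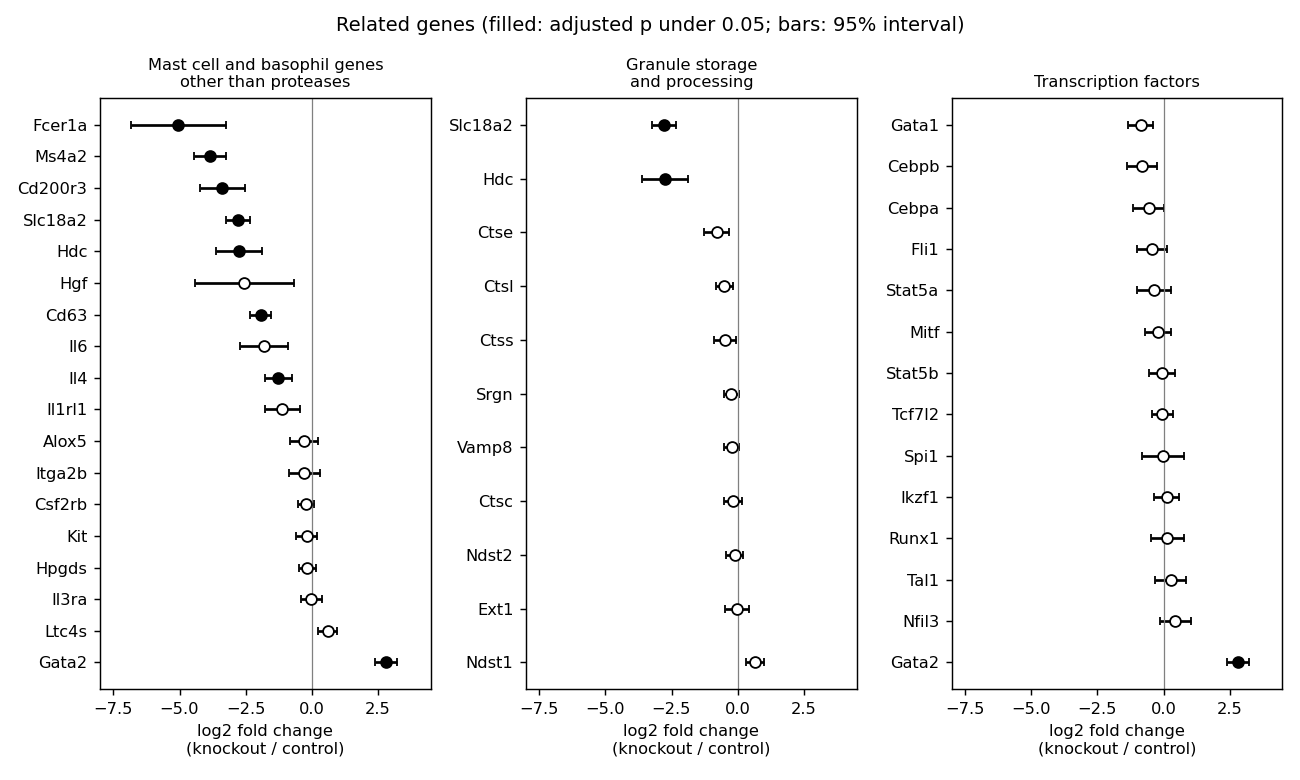
Points give the log2 fold change of the arrays labelled knockout over the controls for tested genes of 3 lists, with bars for 95% intervals and filled points for an adjusted p under 0.05. Filled points at the low end are Fcer1a, Ms4a2, Cd200r3, Slc18a2, Hdc, Cd63 and Il4, and Gata2 is the filled point at the high end.

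Narrower lists, whose genes can still be shared between cell types, gave these counts, to be read beside 0.894% of all named genes that fell and 1.09% that rose. Of 5 tested basophil markers 2 fell, Cd200r3 and Il4, which both stand in the joint list above and do not separate basophils from mast cells. With the common floor neither of the pair passed, and the count was 1 with the replicate block, without any 1 array labelled knockout or without control replicate 1, 2 or 4. Of 6 tested mast cell markers, Kit and Mitf among them, none rose or fell. Of the mast cell receptor genes Mrgprb2 and Mrgprx2, neither was well above background on any array. Mrgprb1, another receptor gene of that list, was well above background on 2 arrays labelled knockout and 1 control. Its log2 fold change was 0.08 (limma adjusted p = 0.967). Of 7 tested eosinophil markers 3 fell, of 8 monocyte and macrophage markers 5, of 9 neutrophil markers 1 and of 8 megakaryocyte and platelet markers 2, with none rising in these lists, and of 4 natural killer cell markers 2 rose. Single arrays moved these counts. The neutrophil count was 6 without replicate 1 labelled knockout. The monocyte and macrophage count was 2 when replicate 1 or 3 with the knockout label, or control replicate 3, was left out, and 3 when control replicate 1, 2 or 4 was. The megakaryocyte and platelet count was 1 without any 1 array labelled knockout or control replicate 1, 2 or 3, and the natural killer cell count was 1 without any 1 array labelled knockout. With the replicate block 0 eosinophil, 1 monocyte and macrophage, 0 neutrophil and 1 megakaryocyte and platelet markers fell, and 1 natural killer cell marker rose. Over probes well above background on all 7 arrays, 1 of 4 basophil, 2 of 4 eosinophil and 3 of 6 monocyte and macrophage markers fell. So did 3 of 8 neutrophil and 4 of 8 megakaryocyte and platelet markers, and 2 of 4 natural killer cell markers rose. Over all 27704 probes of that fit 194 fell and 203 rose. The array means of the eosinophil markers ran from -5.19 to -4.85 in knockout-labelled arrays and from -3.62 to -2.88 in controls. Those of the monocyte and macrophage markers ran from -2.39 to -1.66 in knockout-labelled arrays and from -0.48 to 0.26 in controls. For neutrophil markers they ran from -1.62 to 0.55 in knockout-labelled arrays and from 1.02 to 1.36 in controls. For megakaryocyte and platelet markers they ran from -1.11 to -0.72 and from 0.54 to 1.12. Every tested marker of these 4 lists had a log2 fold change below 0. The medians were -1.55, -1.32, -2.21 and -0.94, in the order of the means given here. The part of any of these cell types in the fall of the proteases was not tested.

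The genes most like Cpa3 over the 7 arrays were sought among 12828 named genes well above background on every array. They were Hsd11b1 (Pearson r = 0.995), Dok3 (0.994), Mcpt8 (0.993), Nrg4 (0.991) and Arl5c (0.989). Hsd11b1, an enzyme that regenerates active glucocorticoid, fell 3.83-fold, and Arl5c fell 4.73-fold (limma adjusted p = 0.000761 and 0.000316). Dok3, a signalling adaptor, had a log2 fold change of -0.56 that did not pass (limma adjusted p = 0.0892). Those most like Mcpt8 were Prss34 (r = 0.996), Ltb4r1 (0.993), Cpa3 (0.993), Klk1b24 (0.990) and Prg3 (0.989). Ltb4r1, a leukotriene B4 receptor, had a log2 fold change of -0.26 (limma adjusted p = 0.485). Tpsb2 had an r of -0.35 with Cpa3 and -0.34 with Mcpt8. These correlations describe arrays that fall into 2 groups and share a slide.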

How the data were processed

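Amplified RNA carried the dye Cy3, per the labels' protocols. The deposited scanner tables give the intensity of each spot, which the authors obtained from Agilent Feature Extraction (version 10.7.3.1, per the file headers, with annotation on mm9). The deposited series table holds log2 values centred per probe. Differences between its columns matched those of the scaled scanner values in direction and scale with slopes near 1, so it served as an alternative.

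Here, processed signals were put on a log2 scale and set relative to their array's 75th percentile (controls excluded). Spots with an outlier mark were dropped, and repeat spots of 1 probe were averaged. Of 34122 probes well above background on at least 3 arrays, 34099 with at least 2 values in each group were tested in limma (3.58.1, run under R 4.3.3; lmFit, then eBayes), and p-values were adjusted by Benjamini-Hochberg over all of them at a threshold of 0.05. Accessions named 26413 of 55681 probes through a RefSeq table of GRCm38.p6, and a listed gene other than the proteases is read from its brightest tested probe. From each related list the rule named up to 4 genes per direction past the threshold or 2 as values, and the 5 genes most like Cpa3 and Mcpt8. Outside that rule, and with values in view, the text names others, such as Gzmc, Ctsg, Prss28, Gata1, Mitf, Srgn and Ctsc. A gene that the rule would name is not reported here. The proteases and the lists were chosen with earlier results of these data known. The median signal was used for normexp. The limma step was tested on simulated data. Precision is limited by the number of arrays and by signal over background, which 61.5% to 67.4% of spots cleared in knockout-labelled arrays, against 54.1% to 56.9% in controls.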

Additional observations from a re-analysis of the deposited data

Results flagged for a closer look

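Tpsb2 probe A_55_P2089143 had 1 control array far from the others. Control replicate 2 read -4.72 on the log2 scale, against -4.02, -3.96 and -4.09 on control replicates 1, 3 and 4, and its gap to the nearest was 0.832 of the range of the 4 arrays. The other Tpsb2 probe was also lowest on that array, at -3.53. Without control replicate 2 the log2 fold change of A_55_P2089143 was 0.22 (limma adjusted p = 0.628), against 0.40 with all arrays. Chance flags about 1 in 20 such groups, and 12 were examined here.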

How the results depend on the processing

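The count of 3 proteases that fell was 3 under 21 of 22 alternatives and 4 without a filter on background, and the count that rose was 0 under all 22. The log2 fold change ranged from -5.23 to -4.69 for Cpa3, from -7.33 to -5.92 for Prss34 and from -2.75 to -2.47 for Mcpt8, with limma adjusted p of at most 0.0179, 0.0198 and 0.0285, each reached with the replicate block. Mcpt4 turned sign with normexp (-0.10) and with each array's own floor (-0.40), and gave no value when an array labelled knockout was left out or with a filter on all 7 arrays. The differences Mcpt8 minus Cpa3, Prss34 minus Mcpt8 and Prss34 minus Cpa3 lay between 2.30 and 2.57, -4.57 and -4.11, and -2.23 and -1.57 with each array left out, and were 2.19, -3.51 and -1.32 with normexp, the values nearest to 0 over all 11 alternatives. Same-numbered arrays did not deviate together (r = -0.06, -0.09 and -0.02), so no sign was seen that replicate numbers pair them. These few values cannot exclude a pairing. With the replicate block 3 proteases fell, and over all probes 71 fell and 81 rose, against 178 and 287. Control replicate 4 has no partner in the block fit and adds nothing to its group difference, so 3 arrays stand against 3. Without control replicate 4 and without a block, 162 of 33967 probes fell and 230 rose. The calls of Fcer1a, Hdc, Il4, Cd63, Klk1b24 and Prg3 were lost with the block (adjusted p from 0.0578 to 0.148). Over all probes 300 fell and 280 rose with normexp and percentile scaling, 311 and 444 with array weights, 390 and 311 with own floors, 194 and 203 over probes above background on all arrays, 202 and 219 with 1 probe per gene, and 9270 and 847 without a filter. Without replicate 1, 2 or 3 labelled knockout 122, 138 and 95 fell and 105, 168 and 84 rose. The cause of these shifts was not tested. Signal near background limits Mcpt1, Mcpt2, Mcpt4 and Cma1.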
